A study of Mus musculus with 24 samples.

Results

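Lysosomal and autophagy genes were followed on 24 arrays (Affymetrix) prepared from MLO-Y4, a mouse cell line with osteocyte-like features whose strain is labelled as a mix of C57B1/6, BALB/c and DBA2. The set had 38 listed genes, chosen by their function with earlier results of these data known. Of them, 36 were measured among the 12393 genes that had a probe set annotated with exactly 1 symbol. Cd63 and Tfe3 had no such probe set and carry no value. For 20 of the 36, several probe sets were present, and the brightest on average stands for the gene. In the flow groups, cells received 2 h of oscillating fluid flow in parallel plate chambers, at 1 Hz and with shear peaking at 10 dyn/cm2. In the sham groups, cells were kept in the same chambers without flow. Both were harvested at 0, 2, 8 and 24 h after the end of flow, with 3 arrays for each of the 8 labelled groups. Slides for the 0 h groups were lysed at once, whereas those for the later times were first moved to dishes with fresh medium. MLO-Y4 is a single immortalised line, and the labels leave unsaid whether the arrays of a group stem from separate cultures, so that p-values measure the spread between arrays, which may be technical. In bulk RNA, a change in the number of cells of a kind and a change in RNA per cell cannot be told apart.

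Lysosomes are acidic compartments in which cathepsins, glycosidases and other hydrolases break down proteins, sugars and lipids. The vacuolar ATPase (V-ATPase) pumps protons across the lysosomal membrane and keeps the lumen acidic, and membrane glycoproteins such as LAMP1 line its inner face. Autophagy delivers cytoplasm to this compartment: the ULK1 kinase and the Beclin 1 lipid kinase complex start an autophagosome, ubiquitin-like conjugation by ATG7, ATG3, ATG5 and ATG12 attaches LC3 and GABARAP proteins to its membrane, and receptors such as SQSTM1 bring in cargo. TFEB, a transcription factor held in the cytoplasm by the kinase complex mTORC1 on the lysosome, switches on many of these genes through a palindromic E-box in their promoters. Osteocytes are bone cells embedded in mineral that sense fluid moving past their processes.

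The values were log2 intensities summarised per probe set by the authors, with array medians between 6.71 and 6.80, and the count of 3 arrays per group limits the precision. Probe sets differ in brightness for the same amount of RNA, so levels were compared within a gene only. Of the osteocyte markers, Gja1 (12.89 to 13.09) and Pdpn (12.20 to 12.77) were high and Phex lay between 7.73 and 9.17, whereas 6 of 10 stayed below 6 on every array, among them Dmp1 (2.66 to 3.0) and Sost (4.22 to 4.99). Macrophages and osteoclasts are rich in lysosomes, so their markers were read as well. Ptprc (3.03 to 3.58), Adgre1 (4.32 to 4.80) and Itgam (3.25 to 4.10) were at the bottom of the scale, 8 of 11 such markers were below 6 on all 24 arrays, and Cd14 was the highest at 7.72 to 8.30. Among the members, only Cd68, a lysosomal glycoprotein best known from macrophages, was below 6 on all 24 arrays. Arrays did not always resemble those of their own label most: for most members values repeated every 8 columns of the deposited table, and the 6 arrays at the last 2 columns of each 8 stood apart. They are replicates 1 and 2 of sham at 2 h, replicate 3 of sham and replicate 1 of flow at 8 h, and replicates 2 and 3 of flow at 24 h. Groups were kept as labelled, and results are also given without these 6 arrays.

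Flow and sham were compared at each time to ask whether oscillating flow altered the expression of these genes. The members leaned lower in flow at 2 h and higher in flow at 24 h, and none passed the test at any time. At 2 h after flow, 4 of 36 members had a higher and 32 a lower mean in flow than in sham (of all 12393 genes, 50.5% were higher and 49.5% lower), with a median log2 difference of -0.13 for the members and 0.0019 for all genes. At 24 h, 24 members had a higher mean and 12 a lower one in flow (all genes: 54.4% and 45.6%), with a median of 0.16 against 0.014 for all genes. At 0 h the split was 21 higher and 15 lower (53.1% and 46.9%) with a median of 0.04, and at 8 h it was 20 higher and 16 lower (52.6% and 47.4%) with a median of 0.02. Without the 6 arrays named above the member medians were -0.01 at 2 h and 0.03 at 24 h, in a fit that leaves 1 sham array at 2 h and 1 flow array at 24 h, each assumed to vary like the other groups. These counts and medians describe the set and were not tested as a set.

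**Figure D1:**
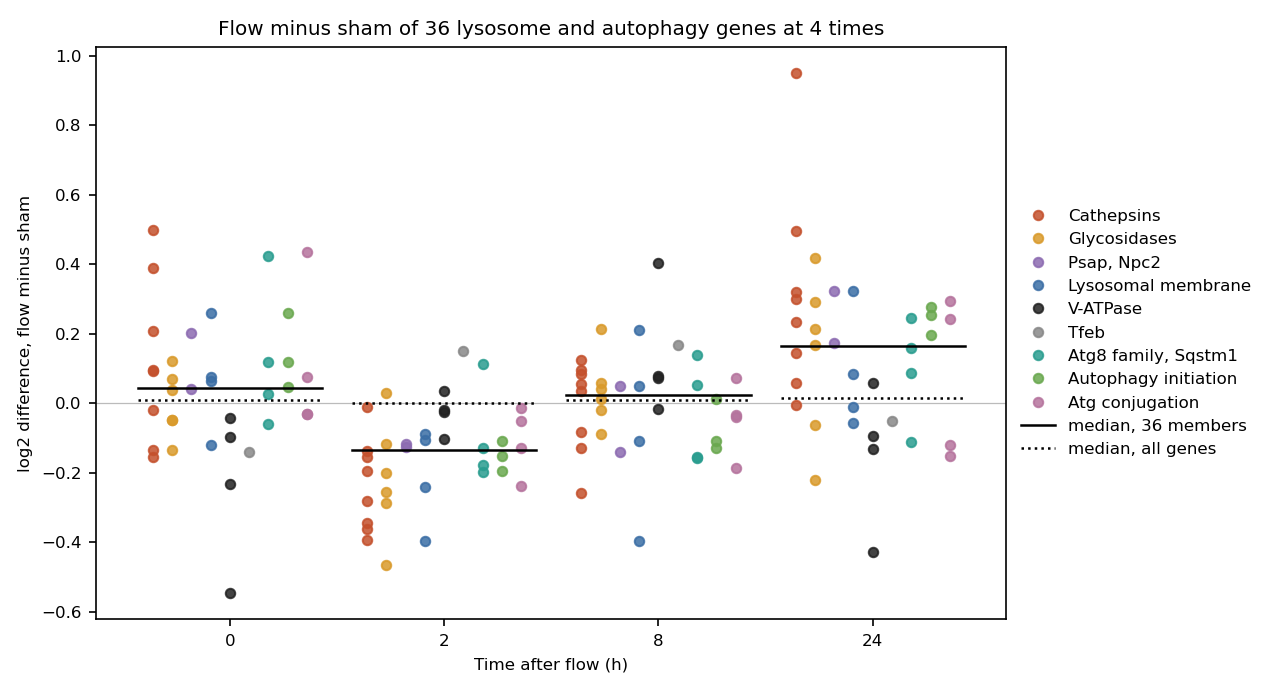
Log2 difference, flow minus sham, of each of the 36 measured members (points, grouped by role along the horizontal axis) at 0, 2, 8 and 24 h after flow. The solid line is the median of the members and the dotted line the median of all 12393 genes. The solid line lies at -0.13 at 2 h and at 0.16 at 24 h.

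By the moderated test of limma, 0 of 36 members and 0 of 12393 genes (0%) had an adjusted p below 0.05 at 0, 2, 8 or 24 h. Before adjustment, 14 members were higher and 4 lower in flow at 24 h with p below 0.05, where 9.80% of all genes were higher and 5.70% lower by the same rule. At 2 h it was 0 members higher and 7 lower (5.99% and 7.58% of all genes). At 0 h it was 4 higher and 3 lower (8.42% and 5.53%), and at 8 h 3 higher and 1 lower (6.63% and 7.74%). All 3 flow arrays lay above all 3 sham arrays for 15 members at 24 h, and below them for 2 (all genes: 13.5% and 6.29%). The same counts were 1 above and 6 below at 2 h (9.16% and 9.27%), 5 and 4 at 0 h (11.1% and 7.92%), and 3 and 1 at 8 h (7.05% and 5.89%).

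Except for Ctsb, the proteases had opposite signs at 2 h and 24 h. The 8 cathepsins Ctsa, Ctsb, Ctsd, Ctsh, Ctsk, Ctsl, Ctss and Ctsz all had a lower mean in flow at 2 h (median -0.24), and 7 of 8 had a higher mean in flow at 24 h (median 0.27), Ctsb being the exception at -0.004. Ctsb differed by only -0.01 at 2 h. Its other 3 probe sets were higher in flow at 2 h (0.08, 0.22 and 0.13) and lower at 24 h (-0.03, -0.24 and -0.42). Cathepsin H, an aminopeptidase of the papain family, measured 9.01, 9.30 and 9.34 in the flow arrays and 9.84, 9.87 and 9.13 in the sham arrays at 2 h. Replicates 1 and 2 of sham were above every flow array and replicate 3 lay among them, so the groups overlapped. At 24 h, Ctsh was 9.52, 9.92 and 9.95 in flow against 9.27, 9.22 and 9.41 in sham, and here all flow arrays were higher. The differences were -0.39 at 2 h and 0.50 at 24 h (SE 0.21 each, adjusted p = 0.389 and 0.293), and neither reached statistical significance. The direction at 2 h was not stable, since the difference was 0.06 with RNA quality covariates and 0.09 without the 6 arrays. At 8 h a single flow array, replicate 1, reached 9.97 beside 9.27 and 9.18, and a single sham array, replicate 3, reached 10.03 beside 9.55 and 9.62.

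Cathepsin L, a cysteine endopeptidase, had the same arrangement over a narrower range. In flow at 2 h it was 12.54, 12.66 and 12.64, against 13.03, 12.96 and 12.68 in sham, with every flow array below every sham array, narrowly. At 24 h it was 12.76, 12.95 and 12.97 in flow and 12.51, 12.48 and 12.73 in sham, with every flow array above, again narrowly. The means were 12.61 ± 0.06 in flow and 12.89 ± 0.18 in sham at 2 h, and 12.89 ± 0.12 in flow and 12.57 ± 0.14 in sham at 24 h (SD, n = 3 each), and the 24 h difference of 0.32 had an adjusted p of 0.290. Ctsa, the carboxypeptidase that protects beta-galactosidase and neuraminidase, measured 10.28, 10.42 and 10.30 in flow and 10.82, 10.77 and 10.45 in sham at 2 h. Its groups narrowly did not overlap at 2 h, and its difference was -0.34 there and 0.23 at 24 h. The aspartic protease Ctsd was higher in all 3 flow arrays at 24 h, by 0.30, as was Ctsz, an exopeptidase, by 0.15. Ctsk, the collagen-degrading cathepsin of osteoclasts, differed by 0.06 with overlap.

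Cathepsin S, which works at near-neutral pH and is known for processing in antigen presentation, had the widest range of the set. In flow it measured 6.57, 7.06 and 7.49 at 0 h, 6.60, 7.0 and 7.13 at 2 h, 7.27, 6.63 and 6.28 at 8 h, and 7.43, 7.45 and 7.60 at 24 h. In sham it measured 6.50, 6.78 and 6.35 at 0 h, 7.72, 7.27 and 6.82 at 2 h, 6.45, 6.47 and 7.50 at 8 h, and 6.39, 5.90 and 7.34 at 24 h. The flow arrays at 24 h were close to one another, while replicate 3 of sham at 24 h stood well above the rest of its group and just below flow. The 24 h difference was 0.95 (SE 0.34, adjusted p = 0.290), with means of 7.49 ± 0.09 in flow and 6.54 ± 0.74 in sham (SD, n = 3 each).

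Among the glycosidases, the alpha-glucosidase Gaa, which degrades lysosomal glycogen, had the smallest p when the flow differences at all times were tested together (limma, adjusted p = 0.141). It measured 8.95, 9.14 and 9.11 in flow and 9.48, 9.41 and 9.08 in sham at 2 h, and 9.34, 9.60 and 9.70 in flow and 9.15, 9.05 and 9.18 in sham at 24 h. At 2 h replicate 3 of sham lay within the flow arrays, and at 24 h the groups were apart. The differences were -0.25 at 2 h and 0.42 at 24 h (SE 0.12, adjusted p = 0.290 at 24 h). Hexa, a subunit of beta-hexosaminidase, was 11.40, 11.62 and 11.60 in flow and 11.95, 11.94 and 11.59 in sham at 2 h, and 11.72, 11.94 and 11.95 in flow and 11.54, 11.54 and 11.66 in sham at 24 h. Its differences were -0.29 and 0.29. Across the role, 1 of 6 genes had a higher mean in flow at 2 h (median -0.23) and 4 of 6 at 24 h (median 0.19). The beta-galactosidase Glb1 did not overlap between groups at either time, narrowly so at 2 h, with -0.20 at 2 h and 0.21 at 24 h. The sialidase Neu1 had the lowest 2 h difference of the set, -0.47, and the beta-glucuronidase Gusb ran the other way at 24 h, -0.22. The alpha-galactosidase Gla differed little, by -0.12 at 2 h and -0.06 at 24 h.

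Prosaposin (Psap), the precursor of sphingolipid activator proteins, and Npc2, which carries cholesterol out of the lysosome, were both lower in flow at 2 h (median -0.12) and both higher at 24 h (median 0.25). Npc2 measured 12.67, 12.86 and 12.85 in flow and 12.42, 12.31 and 12.68 in sham at 24 h. Replicate 3 of sham was just above the lowest flow array, so the groups overlapped.

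The 4 membrane proteins were all lower in mean in flow at 2 h (median -0.17), and 2 of 4 were higher at 24 h (median 0.04). Mcoln1, which encodes the calcium channel TRPML1, measured 8.00, 8.02 and 7.99 in flow and 8.58, 8.55 and 8.09 in sham at 2 h. The flow arrays were within a few hundredths of one another and below all sham arrays, by 0.40 in the mean, with sham itself spread (8.01 ± 0.02 in flow, 8.40 ± 0.27 in sham, SD, n = 3 each). At 24 h it was 8.03, 8.34 and 8.42 in flow and 7.99, 7.81 and 8.02 in sham, a difference of 0.32. The groups barely failed to overlap, with 8.03 the lowest in flow and 8.02 the highest in sham. Lamp1 was higher in all flow arrays at 8 h, at 11.88, 12.01 and 11.97 in flow against 11.68, 11.69 and 11.86 in sham (difference 0.21, with a narrow gap between the groups). Its relative Lamp2 had -0.11 at 2 h and 0.08 at 24 h, while its other 3 probe sets gave -0.42, -0.004 and -0.55 at 2 h and 0.47, 0.08 and 0.49 at 24 h. Cd68 had its lowest difference at 8 h, -0.40, with all values below 6.

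Of the V-ATPase genes, 1 of 4 was higher in flow at 2 h (median -0.02) and 1 of 4 at 24 h (median -0.11). At 0 h, 0 of 4 had a higher mean in flow (median -0.16). Atp6v1a, the catalytic A subunit, had the smallest p of all members over the flow differences together (adjusted p = 0.131). At 0 h it measured 10.60, 10.37 and 10.15 in flow and 10.91, 10.94 and 10.91 in sham, with the flow arrays spread below 3 nearly equal sham arrays. The difference at 0 h was -0.55 (SE 0.14, adjusted p = 0.218). At 8 h Atp6v1a was 10.32, 10.59 and 10.79 in flow and 10.07, 10.02 and 10.40 in sham, a difference of 0.40 (adjusted p = 0.230) with overlapping groups. At 24 h it was 9.89, 10.02 and 9.91 in flow and 10.63, 10.47 and 10.01 in sham, a difference of -0.43 (adjusted p = 0.290), again with overlap. At 2 h the flow arrays (10.56, 10.51 and 10.46) and the sham arrays (10.59, 10.44 and 10.57) covered the same range. The H subunit gene Atp6v1h was lower in all flow arrays at 0 h, at 10.04, 9.84 and 9.94 in flow against 10.17, 10.23 and 10.12 in sham (difference -0.23). Atp6v0d1, of the membrane sector, differed by -0.02 at 2 h and -0.10 at 24 h, and the accessory subunit gene Atp6ap1 by -0.10 and 0.06.

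Tfeb, which encodes a known regulator of many of these genes, had differences of -0.14, 0.15, 0.17 and -0.05 at 0, 2, 8 and 24 h, and thus stood higher in flow at 2 h, where 32 of the members stood lower. It measured 6.87, 6.87 and 6.91 in flow and 6.58, 6.79 and 6.83 in sham at 2 h, with all flow arrays above. These are transcript levels, and TFEB is known to be controlled largely by where the protein sits in the cell, which arrays do not measure.

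Of the Atg8-type genes and the receptor, 1 of 4 was higher in flow at 2 h (median -0.15) and 3 of 4 at 24 h (median 0.12). Gabarapl1, a GABARAP relative that coats autophagosomes, measured 10.35, 10.31 and 10.40 in flow and 9.88, 9.66 and 10.25 in sham at 0 h. The flow arrays were tight and above all sham arrays (10.35 ± 0.05 in flow, 9.93 ± 0.30 in sham, SD, n = 3 each). It was also higher in all 3 flow arrays at 24 h, by 0.25. The LC3 gene Map1lc3b had -0.13 at 2 h and 0.09 at 24 h, and Gabarap had -0.20 and 0.16, all with overlap. Sqstm1, the p62 cargo receptor, had differences of 0.12, 0.11, -0.15 and -0.11 at the 4 times. Its flow arrays at 2 h (12.70, 13.01 and 13.14) lay on both sides of its sham arrays (12.87, 12.90 and 12.75).

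The 3 initiation genes, Becn1, Ulk1 and Wipi1, were all lower in mean in flow at 2 h (median -0.15) and all higher at 24 h (median 0.25). Wipi1, which binds the lipid made on the forming autophagosome, measured 8.94, 9.16 and 9.17 in flow and 8.77, 8.78 and 8.93 in sham at 0 h, and 9.09, 9.07 and 9.24 in flow and 8.81, 8.82 and 8.94 in sham at 24 h. Flow was above sham without overlap at both times, narrowly at 0 h, and below it at 8 h by 0.11. Its differences at 0 and 24 h were 0.26 and 0.28 (adjusted p = 0.290 at 24 h). Ulk1, the kinase that starts autophagy, was 7.21, 7.26 and 7.31 in flow and 7.12, 6.91 and 6.99 in sham at 24 h, without overlap. Becn1, the Beclin 1 gene, had -0.15 at 2 h and 0.20 at 24 h with overlap.

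The 4 conjugation genes had no common direction at 24 h, with 2 of 4 higher (median 0.06), after 0 of 4 at 2 h (median -0.09). Atg7, the E1-like enzyme of the pathway, measured 7.59, 7.87 and 8.05 in flow and 7.51, 7.42 and 7.28 in sham at 0 h, and 7.78, 7.77 and 7.80 in flow and 7.51, 7.37 and 7.57 in sham at 24 h. Every flow array was above every sham array at both times, by 0.44 (SE 0.12, adjusted p = 0.218) and 0.30. The other 2 probe sets for Atg7 did not show this, with -0.07 and -0.04 at 0 h and -0.03 and 0.03 at 24 h. Atg12, the ubiquitin-like modifier, was 8.24, 8.40 and 8.19 in flow against 8.05, 7.97 and 8.09 in sham at 24 h, and its partner Atg5 was 8.94, 8.89 and 8.76 in flow against 9.02, 9.09 and 8.94 in sham. So at the same time Atg12 stood higher and Atg5 and Atg3 lower in flow, each without overlap, narrowly so for Atg5.

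**Figure D2:**
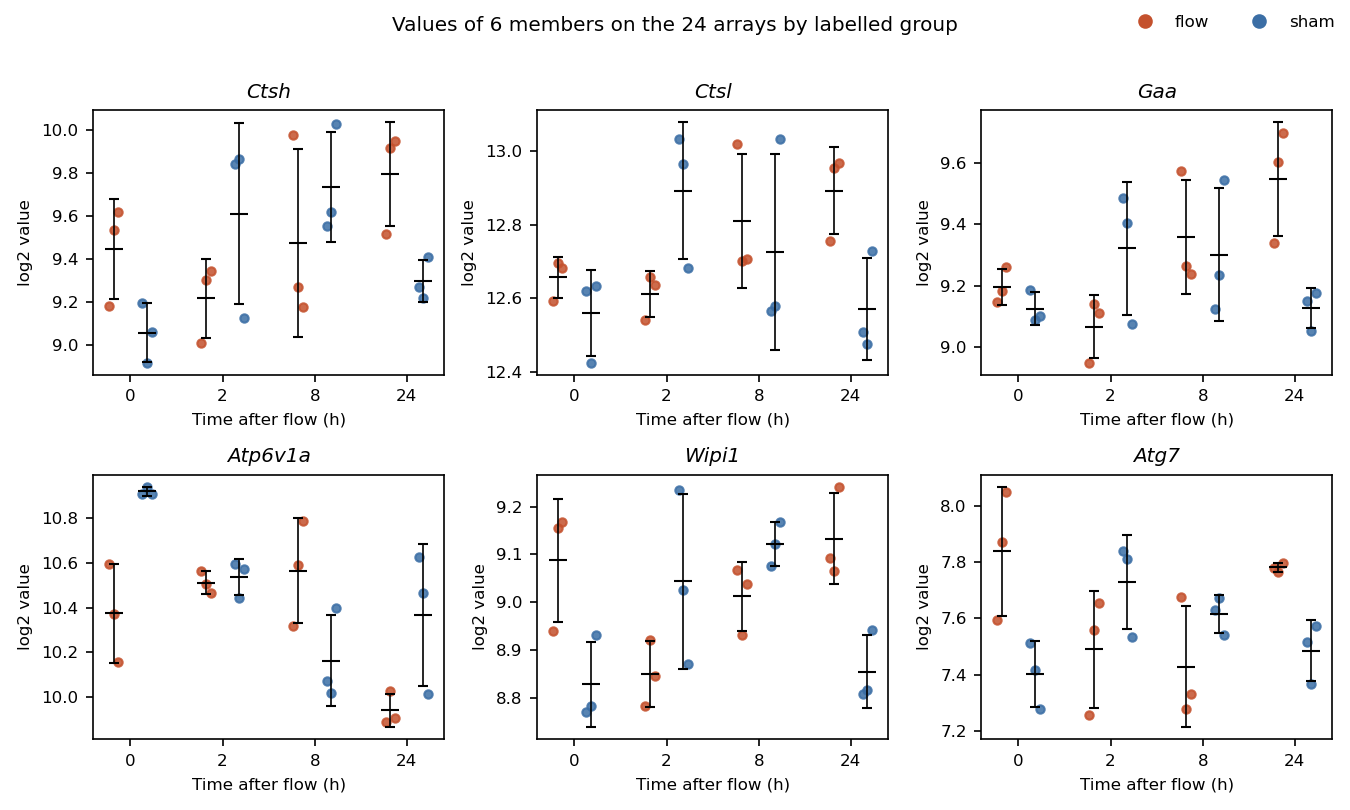
Log2 intensity (vertical axis) of 6 members at 0, 2, 8 and 24 h after flow, flow left of sham at each time. Points are single arrays and bars the mean ± SD of 3 arrays. Ctsh, Ctsl and Gaa have lower means in flow at 2 h, where the groups of Ctsh and Gaa overlap, and lie higher in flow at 24 h. Atp6v1a has its widest gap at 0 h (10.37 ± 0.22 in flow, 10.92 ± 0.02 in sham), and Wipi1 and the Atg7 probe set used are higher in flow at 0 and 24 h.

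Tested over the 4 times together, 0 of 36 members had a flow difference (adjusted p below 0.05) and 13 had an unadjusted p below 0.05, against 0% and 23.3% of all genes. The interaction of flow with time gave 0 members called and 16 with an unadjusted p below 0.05 (0% and 27.3%), the smallest adjusted p being 0.0784 for Atp6v1a, Wipi1 and Atg7. Averaged over the times, 0 were called and 3, all lower in flow, had an unadjusted p below 0.05. Of all genes, 0% were called and 4.79% had such a p in either direction, 398 of 12393 higher and 196 lower. The counts of 0 depended on the weighting and on single arrays: with limma's array weights 9, 15, 6 and 19 of 36 members were called at 0, 2, 8 and 24 h, but 2330, 2312, 3151 and 2361 of 12393 genes were called too, and without replicate 3 of sham at 24 h, Ctss (1.35), Gusb (-0.325) and Atp6v1a (-0.61) were called at 24 h. Without replicate 1 of flow at 8 h, Atp6v1a was called at 8 h (0.53). The beta-actin 3′ minus 5′ probe difference, a sign of RNA quality, moved with the lean as well (flow minus sham -0.076 at 2 h and 0.063 at 24 h, exact two-sided permutation p = 0.1 for each, the smallest that 3 against 3 allows), and with RNA quality measures as covariates the members had medians of -0.01 at 2 h and 0.02 at 24 h, and of -0.10 at 0 h. The macrophage and osteoclast markers had median differences of 0.02 at 2 h and -0.02 at 24 h. Medians at these times were 0.06 and -0.006 for 10 osteocyte markers and 0.06 and 0.02 for 6 endothelial markers. For 4 adipocyte markers they were 0.12 and -0.39.

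Flow and sham arrays were then averaged with equal weight to compare times. Of the 36 members, 1 was called: Atp6v1a was lower by 0.49 at 24 h than at 0 h (SE 0.10, adjusted p = 0.0138), beside 14 of all genes called higher and 78 called lower (0.113% and 0.629%). At 24 h its flow arrays were 9.89, 10.02 and 9.91 and its sham arrays 10.63, 10.47 and 10.01, against 10.60, 10.37 and 10.15 in flow and 10.91, 10.94 and 10.91 in sham at 0 h. All 24 h arrays except replicates 1 and 2 of sham lay below every 0 h array. Counting the deposited columns in blocks of 8, the 0 h arrays sit at positions 1 to 6 and the 24 h arrays at 3 to 8. Atp6v1a also differed by position, by 0.30 at 1 and 2 and by -0.18 at 7 and 8 from the other columns. Only the 24 h cells had been moved to fresh medium. The parts of column position and medium in this difference were not tested. The call was lost under 4 of the alternatives, among them the mean of both its probe sets (-0.31, adjusted p = 0.1941), where its other probe set gave -0.13, and the fit without replicate 1 of flow at 0 h (-0.44, adjusted p = 0.05138).

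In the test over all times, 0 of 36 members and 101 genes (0.815%) were called, and Atp6v1a and Sqstm1 were the 2 members with an unadjusted p below 0.05 (11.8% of all genes). Relative to 0 h, 27 members had a higher mean and 9 a lower one at 2 h (all genes: 51.3% and 48.7%), 25 and 11 at 8 h (50.2% and 49.8%), and 29 and 7 at 24 h (58.4% and 41.6%). The 6 arrays that stood apart all belong to 2, 8 and 24 h and none to 0 h. On them the median member was 0.20 higher than on the other arrays, and their part in these counts was not tested. At 2 h and 8 h, 0 members were called, beside 0.0161% of all genes higher at 8 h and 0% otherwise. With an unadjusted p below 0.05, 2 members were higher at 2 h, Npc2 and Mcoln1, and 0 lower (all genes: 3.50% in each direction), 3 were higher at 8 h, Ctsh, Hexa and Lamp2, and 1 lower, Atp6v1a (4.15% and 5.67%), and 3 were higher at 24 h, Gaa, Npc2 and Becn1, and 2 lower, Atp6v1a and Atg5 (5.37% and 4.40%).

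The columns of the deposited table run in the order of the labels, from sham at 0 h to flow at 24 h, and the members repeated with a period of 8 columns that crosses the labels. Counting the 24 columns in 3 blocks of 8, positions 7 and 8 are replicates 1 and 2 of sham at 2 h in the first block, replicate 3 of sham and replicate 1 of flow at 8 h in the second, and replicates 2 and 3 of flow at 24 h in the third. Over the 36 members, the median of these 6 columns exceeded that of the other 18 for 28 genes and was below it for 8, by 0.20 in the median member. For all genes the figure was -0.0007, with 49.8% higher. At the other position pairs the member medians were -0.04 (1 and 2), -0.05 (3 and 4) and 0.001 (5 and 6). Position in the table gives no array a condition, and these are descriptions with no test.

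**Figure D3:**
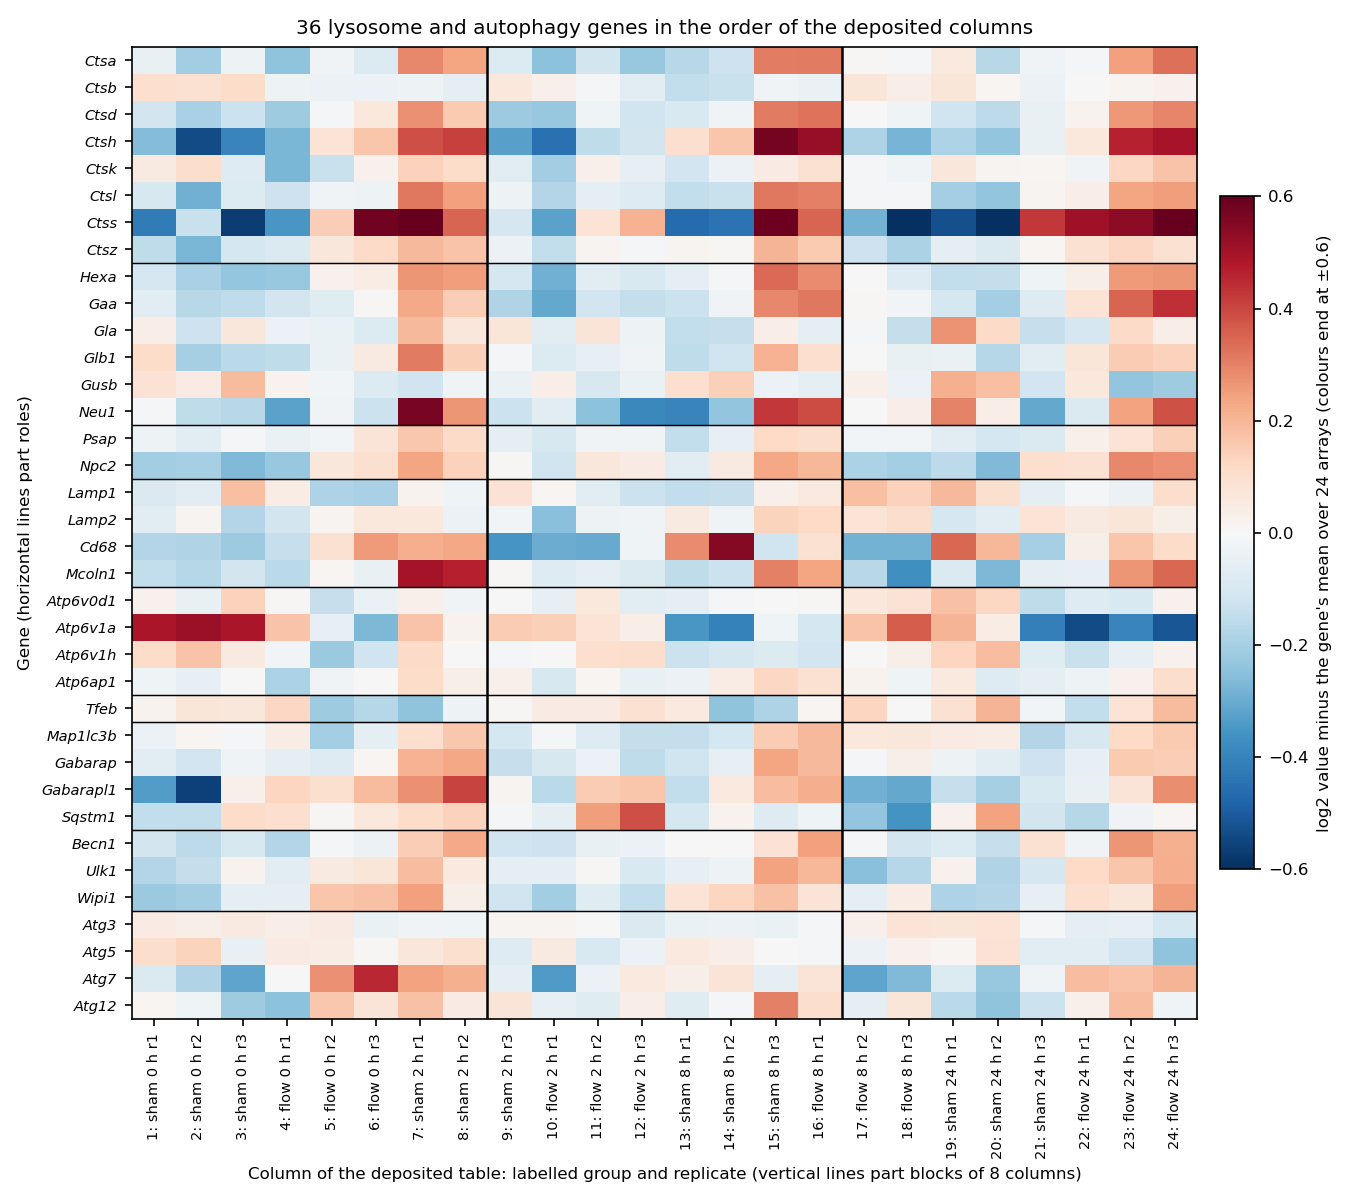
Log2 value of each of the 36 members minus its own mean (colour, ending at 0.6 above and below) in the 24 columns in deposited order, with genes grouped by role. Vertical lines part the blocks of 8 columns. The last 2 columns of each block are high for most hydrolases, Psap, Npc2 and most Atg8-type genes, and less so for the V-ATPase and conjugation genes.

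For 11 of the 36 members all 6 columns at positions 7 and 8 lay above all 18 others, against 5.07% of all genes, and for 0 they lay below all others (2.44%). At the other 3 position pairs, 0 members lay above or below all the rest (above: 0.266%, 0.0242% and 0.452% of all genes; below: 0.258%, 0.0565% and 0.500%). Ctsh had the widest difference of medians of the 11, 0.66, with 9.84 to 10.03 in these columns and 8.92 to 9.62 in the others. The remaining proteases among them were Ctsa (10.77 to 10.86 against 10.28 to 10.59), Ctsd (11.26 to 11.43 against 10.88 to 11.17) and Ctsl (12.95 to 13.03 against 12.43 to 12.76). In Ctsl the 6 columns thus lay close to one another although they carry 4 different labels.

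Of the glycosidases, Hexa (11.94 to 12.03 against 11.40 to 11.73) and Gaa (9.41 to 9.70 against 8.95 to 9.34) were separated in this way. So were the sterol carrier gene Npc2, at 12.72 to 12.86 against 12.31 to 12.68, and Psap, at 11.94 to 12.02 against 11.71 to 11.93. Mcoln1 stood for the membrane proteins, at 8.32 to 8.58 against 7.71 to 8.09. In autophagy the separated genes were the ubiquitin-like coat genes Map1lc3b (11.26 to 11.35 against 10.95 to 11.23) and Gabarap (11.33 to 11.42 against 11.03 to 11.22). Ctss (difference of medians 0.86), Neu1 (0.51), Gabarapl1 (0.31), Becn1 (0.28) and Ulk1 (0.25) were higher at these positions but overlapped the other columns.

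The 8 members that were lower at positions 7 and 8 were Atp6v1a (-0.18), Gusb (-0.13), Tfeb (-0.06), Atg3 (-0.06), Ctsb (-0.03), Atp6v1h (-0.03), Atg5 (-0.02) and Sqstm1 (-0.01), so that they included 2 of the V-ATPase genes, Tfeb and 2 of the conjugation genes. Atp6v1a had its own order, with 0.30 at positions 1 and 2 and -0.53 at 5 and 6. Sqstm1 was highest at 3 and 4 (0.22), Gabarapl1 lowest at 1 and 2 (-0.41), and Ctss lowest at 3 and 4 (-0.69).

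Summarised per array, the median of the members relative to their own means placed the 6 arrays at positions 7 and 8 first to sixth of 24, between 0.11 and 0.19, with all others between -0.14 and 0.01. The median of all genes stayed between -0.03 and 0.02 on every array. Values 8 columns apart were closer than values within a label for 30 of 36 members (65.5% of all genes), the median SD being 0.087 for columns 8 apart and 0.12 within a label. The beta-actin 3′ minus 5′ difference was 0.22 to 0.26 on the 6 arrays, and 2 other arrays, replicate 3 of flow at 0 h and replicate 1 of flow at 24 h, lay inside this range. The Gapdh difference was -0.19 to -0.16 on the 6 arrays, inside its range of -0.20 to -0.13 at positions 3 and 4.

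**Figure D4:**
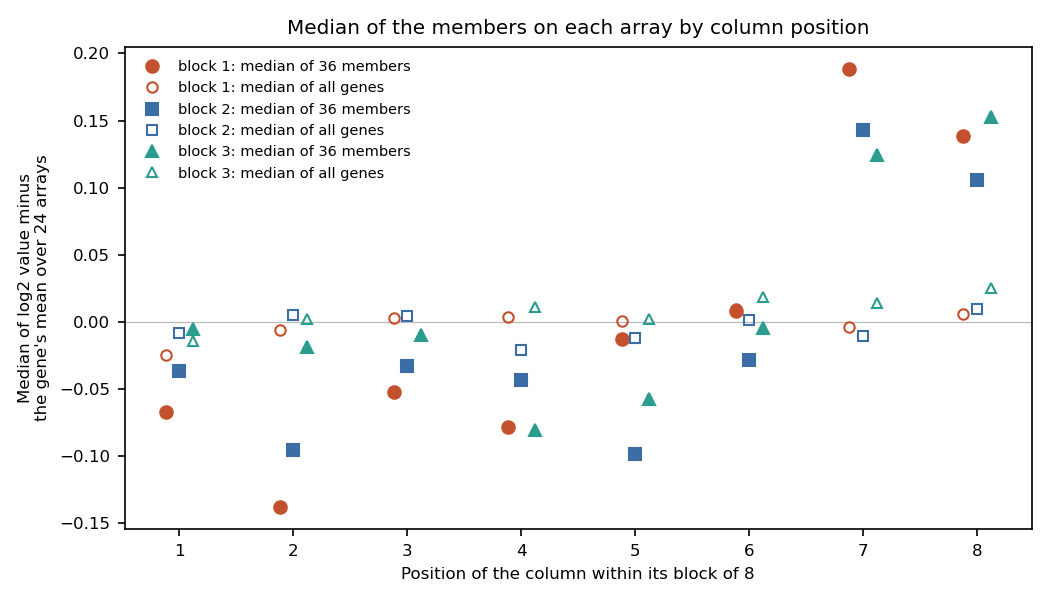
Median over the 36 members (filled) and over all 12393 genes (open) of each array's log2 value minus the gene's mean (vertical axis), by position in the block of 8 columns (horizontal axis) for the 3 blocks. The members lie between 0.11 and 0.19 at positions 7 and 8 of every block, above all other arrays, while all genes stay near 0.

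Within a pair of positions the second column was lower than the first in all 3 blocks for 14 of 36 members at positions 1 and 2 (17.4% of all genes) and for 14 at positions 3 and 4 (17.8%), and higher in all 3 for 17 at positions 5 and 6 (22.4%). At positions 7 and 8 it was higher in all blocks for 4 (15.7%) and lower for 7 (14.8%).

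Different probe sets of 1 gene did not always show the same pattern. For Lamp2 the probe set used was 0.09 higher at positions 7 and 8, and the other 3 were 0.55, 0.05 and 0.63 higher. The additional Map1lc3b probe sets gave 0.46, 0.58 and 0.05. Those of Ctsb gave -0.01, -0.33 and -0.39, those of Neu1 -0.05 and 0.11, the other of Ulk1 -0.0006, and those of Atg7 -0.004 and -0.06. In flow differences, the other Map1lc3b probe sets gave -0.35, -0.26 and -0.20 at 2 h and 0.17, 0.25 and 0.08 at 24 h, the other of Ulk1 gave 0.11 and 0.01, and those of Neu1 gave 0.02 and -0.19 at 2 h.

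To describe what the members share in sequence, their promoters were searched for the E-box that TFEB and its relatives recognise. Any link between this E-box and the values on the arrays was not tested. Promoters were taken from RefSeq (mouse build GRCm38.p6) as 250 bases before to 50 bases after each gene's start, and 31 of 36 members matched. Ctsb, Atg12, Becn1, Ctsh and Atp6v1h are named only. The core CACGTG was in 13 of 31 (41.9%), against 8.09% of 27025 genes with a promoter of the same length. These 27025 include genes without a value on the arrays and were not matched to the members in level. The longer TCACGTGA, which contains the core, was in 7 of 31 (22.6%) against 1.12% of those genes. TCACGTGA extended by a G before and a C after was searched too. It was in 0 of 31 (0%) against 0.37% of those genes. At so low a share, 31 promoters cannot show whether the members lack it. All of these motifs are palindromes and read alike on both strands. The 60 bases around the site are shown for 3 genes that were above all other columns at positions 7 and 8, Ctsa, Ctsd and Mcoln1, and for 2 that were not, Atp6v1a and Atg3. Capitals mark TCACGTGA, and each sequence runs 5′ to 3′ on the strand of its gene.
Ctsa: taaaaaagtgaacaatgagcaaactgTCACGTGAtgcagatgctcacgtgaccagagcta
Ctsd: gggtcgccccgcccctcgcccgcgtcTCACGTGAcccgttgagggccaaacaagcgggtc
Mcoln1: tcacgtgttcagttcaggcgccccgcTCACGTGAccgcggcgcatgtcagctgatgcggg
Atp6v1a: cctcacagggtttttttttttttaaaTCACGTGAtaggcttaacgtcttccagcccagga
Atg3: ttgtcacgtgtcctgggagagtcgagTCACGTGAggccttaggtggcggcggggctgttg

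The windows are chr2:164833734-164833793 on the plus strand for Ctsa, chr7:142387893-142387952 on the minus strand for Ctsd, chr8:3500447-3500506 on the plus strand for Mcoln1, chr16:44139358-44139417 on the minus strand for Atp6v1a and chr16:45158731-45158790 on the plus strand for Atg3. The marked site begins 13 bases before the annotated start of Ctsa, 99 before Ctsd, 46 before Mcoln1, 132 before Atp6v1a and 72 before Atg3. Ctsa holds a further TCACGTGA in the same window, in lower case. The lysosomal alpha-galactosidase gene Gla and the V-ATPase subunit gene Atp6v0d1 also hold the site. Of the members above all other columns at positions 7 and 8, 3 of 10 with a promoter held TCACGTGA and 5 of 10 held CACGTG, against 4 and 8 of 21 among the rest. A match describes the letters only, and binding was not measured.

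A wider list of lysosomal and autophagy genes was read in the same way, with 97 of 123 measured. At 2 h 21 had a higher and 76 a lower mean in flow (median -0.09), and at 24 h 62 were higher and 35 lower (median 0.06). As for the members, 0 of 97 were called in any flow comparison, and 2 were higher and 12 lower at 2 h, and 22 higher and 2 lower at 24 h, with an unadjusted p below 0.05 (all genes: 5.99% and 7.58% at 2 h, 9.80% and 5.70% at 24 h). Of 22 further hydrolases, 4 were higher in flow at 2 h (median -0.16) and 18 at 24 h (median 0.18), and of 26 further autophagy genes 4 at 2 h (median -0.16) and 20 at 24 h (median 0.11). Of 20 membrane and sorting genes 7 were higher at 2 h (median -0.04) and 9 at 24 h (median -0.006), of 17 genes of mTORC1 and TFEB control 3 and 8 (medians -0.06 and -0.01), and of 12 further V-ATPase genes 3 and 7 (medians -0.09 and 0.02). Atg14, a Beclin 1 partner, had the smallest p of the list over the flow differences together (adjusted p = 0.131). It measured 6.20, 6.12 and 6.19 in flow and 6.64, 6.58 and 6.35 in sham at 2 h, and 6.23, 6.56 and 6.52 in flow and 5.96, 5.84 and 6.05 in sham at 24 h, without overlap at either time. The sulfatase Arsa had differences of -0.35 at 2 h and 0.34 at 24 h, and the metal transporter gene Slc11a2 had the reverse, 0.46 and -0.53.

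Over time, 3 genes of the wider list were called at 24 h relative to 0 h, 1 higher and 2 lower (all genes: 0.113% and 0.629%). Ctsc, the cathepsin C dipeptidyl peptidase, rose by 0.53 (SE 0.10, adjusted p = 0.0066), with 6.37, 6.09 and 6.25 in flow and 5.95, 5.79 and 6.26 in sham at 24 h, against 5.30, 5.79 and 5.66 in flow and 5.67, 5.64 and 5.45 in sham at 0 h. Only the sham array of replicate 2 at 24 h reached down to the highest 0 h array. Igf2r, the mannose 6-phosphate receptor that sorts hydrolases to the lysosome, fell by 0.53 (SE 0.093, adjusted p = 0.00357), with 8.21, 8.24 and 8.36 in flow and 8.39, 8.47 and 8.07 in sham at 24 h, against 8.60, 8.65 and 8.53 in flow and 9.17, 9.18 and 8.79 in sham at 0 h. The V-ATPase subunit gene Atp6v0a2 fell by 0.40 (SE 0.063, adjusted p = 0.00129), with 7.20 to 7.65 over the 24 h arrays and 7.74 to 7.94 over the 0 h arrays. For both, every 24 h array was below every 0 h array. As for Atp6v1a, the parts of column position and fresh medium in these differences were not tested.

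By column order, 74 of the 97 were higher at positions 7 and 8 (median 0.12), 18 were above all other columns and 1, Slc11a2, was below (all genes: 49.8% higher, 5.07% above and 2.44% below all others). The 18 were 7 of 22 further hydrolases (Arsa, Man2b1, Manba, Sgsh, Tpp1, Ppt1 and Lgmn), 3 of 12 further V-ATPase genes (Atp6v1e1, Atp6v1f and Atp6v1g1), 4 of 26 further autophagy genes, 3 of 17 genes of mTORC1 and TFEB control and 1 of 20 membrane and sorting genes (Vps41). The macrophage and osteoclast markers had a median of 0.009 at these positions, with 0 of 11 above all other columns. The 10 osteocyte markers had a median of -0.04, with 0 above and 2 below all other columns, and the 6 endothelial markers -0.05. Adipocyte markers differed by position, with medians of 0.29 (1 and 2), 0.35 (3 and 4), -0.29 (5 and 6) and -0.28 (7 and 8) over 4 genes.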

How the data were processed

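RNA from MLO-Y4 cells was labelled by an oligo-dT one-cycle protocol and hybridised to Affymetrix arrays, 24 in all. The authors deposited log2 values per probe set, made by RMA, and no further normalization was applied. The RMA version is not given in the sources used here. Of 22690 probe sets, 20380 had exactly 1 symbol in the platform annotation. They gave 12393 genes, with the brightest probe set on average taken where a gene had several. Samples were grouped by treatment and time as labelled, 3 arrays in each of 8 groups.

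Group means over all 24 arrays were fitted by lmFit, contrasts.fit and eBayes of limma (3.58.1, under R 4.3.3), with Benjamini-Hochberg adjustment over 12393 genes, a threshold of 0.05 and no filter on dim genes. The code was tested on simulated data. Values were also described by column order, with no test. The members and lists were chosen with earlier results of these data known. All measured members could be named. Array values were given for those with the smallest p for flow or time in each role, for called genes, and for Ctss, Ctsh and Atp6v1a. Alternatives were a replicate block, a fit within each time, trend and robust moderation, array weights, a second quantile normalization, median centring, a filter on dim genes (log2 of at least 6 in 3 arrays), the mean of all probe sets, RNA quality covariates, leaving out each array in turn and, chosen after seeing the data, leaving out the 6 arrays at positions 7 and 8.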

Additional observations from a re-analysis of the deposited data

How the results depend on the processing

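The median member difference kept its sign at 2 h and 24 h under every alternative run, but shrank with the RNA quality covariates (-0.01336 at 2 h and 0.02394 at 24 h, and -0.1029 at 0 h, where the sign turned) and without the 6 arrays at positions 7 and 8 (-0.01185 at 2 h and 0.03112 at 24 h), an alternative chosen after seeing the data. Without those arrays 4 genes were called at 0 h and 866 at 8 h, 2 of them members (Cd68 -0.702 and Atp6v1a 0.644), and the test over the flow differences together and that of the interaction called 1 member each. Array weights called 2330, 2312, 3151 and 2361 genes and 9, 15, 6 and 19 members at 0, 2, 8 and 24 h, 29 members over the flow differences together, 29 in the interaction and 5 over time. Over the flow differences together, in the interaction and over time, only members were counted under the alternatives. No share over all genes stands beside those member counts, so they show nothing particular to the set. Median centring called 2 genes at 2 h and the mean of all probe sets 1, and trend and robust moderation and the filter on dim genes each called 1 member over time.

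With single arrays left out, called genes ranged from 0 to 1 at 0 h, 0 to 117 at 2 h (without sham replicate 3), 0 to 672 at 8 h (without flow replicate 1) and 0 to 278 at 24 h (without sham replicate 3). Called members were 0 at 0 h and at 2 h, 0 to 1 at 8 h, 0 to 3 at 24 h, 0 to 8 over the flow differences together (without flow replicate 1 at 8 h), 0 to 11 in the interaction (without sham replicate 3 at 2 h), 0 to 1 over time and 0 averaged over times. Here too, the tests over several times have no share over all genes beside them. The member medians ranged from 0.01684 to 0.09351 at 0 h, -0.2035 to -0.09656 at 2 h, -0.04297 to 0.087 at 8 h and 0.1359 to 0.2133 at 24 h.

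Of the named differences, Atp6v1a at 2 h changed sign with centring (0.04373), with the covariates (0.02518) and without sham replicate 1 at 2 h (range with single arrays left out -0.07262 to 0.00286), and Ctsh at 2 h changed sign with the covariates (0.05538) and without the 6 arrays (0.09016). The fall of Atp6v1a at 24 h relative to 0 h was no longer called with the mean of its probe sets (-0.3121, adjusted p = 0.1941), the covariates (-0.4729, 0.05954), without flow replicate 1 at 0 h (-0.4381, 0.05138) and without the 6 arrays (-0.5202, 0.1023). The causes were not tested. The labels call the static chambers paired. Correlations of same-numbered arrays ran from -0.346 to 0.192, which cannot show whether equal numbers stand for paired chambers. The replicate block changed no call, with 0 members called in each flow comparison and an adjusted p of 0.02972 for Atp6v1a over 24 h.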
